A study of Drosophila melanogaster with 2 samples.

Results

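The regions described here are 572 binding peaks of Rx-eGFP that lie in introns close to a gene's start, outside the X and Y chromosomes. Rx-eGFP is the homeodomain protein Rx fused to enhanced green fluorescent protein. A peak was taken as a member when its summit, the position of its highest signal, lay inside a protein-coding gene, in no exon of a protein-coding transcript, and over 500 but at most 5000 bp from the nearest protein-coding transcription start. They were taken by position alone from the series-wide conservative list of 3303 peaks, of which 3250 lie on the chromosome arms and 2607 on arms other than X and Y. Chromatin came from whole Drosophila melanogaster embryos, 0 to 24 h old, of a strain with an Rx-GFP insertion, and was precipitated with an antibody against GFP. All samples carry the tagged protein, and they form 1 group of 2 biological replicates. Whole embryos mix many cell types, so a low peak can stand for weak binding in many cells or strong binding in few, and these cannot be told apart. Untagged embryos and the control experiment that the labels name were not analysed here.

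Rx belongs to the paired class of homeodomain proteins. In flies it acts in the brain and the clypeolabrum of the embryo, and its vertebrate relatives are required to form the eye. Homeodomains of this class recognise a short core, TAATTA, and as dimers they bind TAAT and ATTA separated by 2 or 3 bases. Introns near a start often hold enhancers and alternative promoters, and in fly genes the first intron is commonly the longest.

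Among all words of 6 letters, ACAGTG had the highest odds ratio at the member summits against nearby sequence, so stretches that hold it are shown first. They come from the 8 highest members, outside a single arm from which no sequence is shown, whose 201-base summit window holds the word. Each is read 5′ to 3′ on the strand that reads ACAGTG, which is in capitals, with 25 bases on either side, from the dm6 build (RefSeq Release 6 sequence).
CG32264, 3L:3785129-3785184, plus strand: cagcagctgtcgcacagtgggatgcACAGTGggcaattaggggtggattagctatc
Csk, 3R:11649686-11649741, minus strand: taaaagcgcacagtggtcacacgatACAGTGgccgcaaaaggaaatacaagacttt
for, 2L:3655699-3655754, plus strand: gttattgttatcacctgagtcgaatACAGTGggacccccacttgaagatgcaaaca
aos, 3L:16480452-16480507, plus strand: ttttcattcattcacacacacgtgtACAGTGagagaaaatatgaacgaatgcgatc
MYPT-75D, 3L:18640744-18640799, minus strand: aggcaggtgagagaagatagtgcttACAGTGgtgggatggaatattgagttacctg
CG31635, 2L:6647214-6647269, plus strand: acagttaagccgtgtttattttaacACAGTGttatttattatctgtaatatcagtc
CG17834, 2L:8534863-8534918, minus strand: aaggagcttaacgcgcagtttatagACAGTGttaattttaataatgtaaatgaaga
Hsp83, 3L:3194315-3194370, minus strand: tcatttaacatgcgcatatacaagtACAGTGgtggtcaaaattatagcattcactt

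The dimer site of paired-class homeodomains, TAAT and ATTA with 3 bases between them, was held by 16 member windows. The 4 highest of these from the same arms are shown because this is the site known for the protein's class, with the dimer in capitals and 20 bases on either side.
CG32425, 3L:20508375-20508425: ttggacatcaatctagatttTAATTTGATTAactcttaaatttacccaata
Syn, 3R:10213604-10213654: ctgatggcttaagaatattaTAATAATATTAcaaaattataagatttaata
beat-Ib, 2L:15912160-15912210: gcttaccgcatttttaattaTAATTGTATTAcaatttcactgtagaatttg
Pitslre, 3L:20772167-20772217: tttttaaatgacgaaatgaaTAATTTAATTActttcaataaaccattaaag

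Peak heights are the authors' signal values, whose scale is not stated, and no file gives read depth. The members' heights ran from 4.33 to 1111.5, with a median of 85.2 and a middle 50% from 63.3 to 134.0. Intronic peaks over 5000 bp from a start, 312 in number, had a median of 83.4, intergenic peaks 83.1 and promoter peaks, whose summits lie within 500 bp of a start, 99.2. Of the members, 271 of 572 (47.4%) were above the median of the whole list, 90.1, against 654 of 1152 promoter peaks (56.8%), an odds ratio of 0.69 (Fisher's exact test, two-sided, adjusted p = 0.00107 over 12 comparisons of peak classes). Against far intronic peaks, with 43.3% above that median, the odds ratio was 1.18 and did not pass the test (Fisher's exact test, adjusted p = 0.323), although with replicate 1's own list alone it was 1.53 and passed (adjusted p = 0.0451). Peaks are not biological replicates, so every p given here describes the deposited lists rather than variation from one embryo collection to the next.

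The highest member lay in an intron of CG11050 on 2L:6612581-6612848, 1022 bp from a start of that gene, with a signal of 632.5 in replicate 1 and 467.0 in replicate 2. It was the seventh highest peak on all arms. At 268 bp it was wider than the shortest annotated intron around its summit, which is 140 bp long. The next, on 2R:21703217-21703611, lay in both HmgZ and HmgD, which encode high mobility group chromosomal proteins, 563 bp from a start of HmgZ, and had 501.7 in replicate 1 and 332.5 in replicate 2. The third lay in Adf1, the gene of a DNA-binding transcription factor, on 2R:6662951-6663182, with 460.9 and 351.8 in replicates 1 and 2. The fourth, with 397.1 and 284.8, lay on 3L:14759381-14759642 in Trl, which encodes the GAGA factor, 1540 bp from a start shared with CG42507. In each of these 4 the signal was higher in replicate 1.

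Of the other members among the 12 highest, CG9837 had signals of 297.7 in replicate 1 and 230.8 in replicate 2, and CG12769 had 294.1 and 183.0. The peak in mub, which encodes a KH-domain RNA-binding protein, had 263.7 and 223.8. The peak on 2L:16351134-16351341 lay in Hyls1, a centriole protein gene, and in chif, whose product is related to the Dbf4 activator of DNA replication, and had 258.1 and 237.8. CG4496 had 274.5 and 160.9. The peak in the potassium channel gene KCNQ, on 2R:10159587-10159791 and 759 bp from a start of mlt, had 243.2 and 214.7. In 2 of the 12 replicate 2 was the higher, CG9663 with 228.7 and 241.8 and CG32264 with 196.8 and 201.7. All 12 were in both replicates' own lists, and their series-wide signals were 399.7 or more.

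Replicate heights are given as a description of the list, because a threshold on the irreproducible discovery rate favours peaks that rank alike in both replicates. Of 561 members with an overlapping peak in both ranked lists, 535 (95.4%) differed by at most a factor of 2, against 96.3% of such peaks on all arms, and the median ratio of replicate 2 to replicate 1 was 0.93 against 0.93. Spearman's rho across those members was 0.71, a description over peaks that share 2 libraries. For 9 members replicate 1's ranked list had no overlapping peak, and for 2 members replicate 2's had none. A thresholded peak of replicate 1 overlapped 355 members (62.1%), where the share over all peaks on the arms was 65.9%, and one of replicate 2 overlapped 317 (55.4%, against 59.9% over all). Both lists held 256 members (44.8%, 95% Wilson interval 40.7 to 48.9%), against 50.6% over all peaks.

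**Figure D1:**
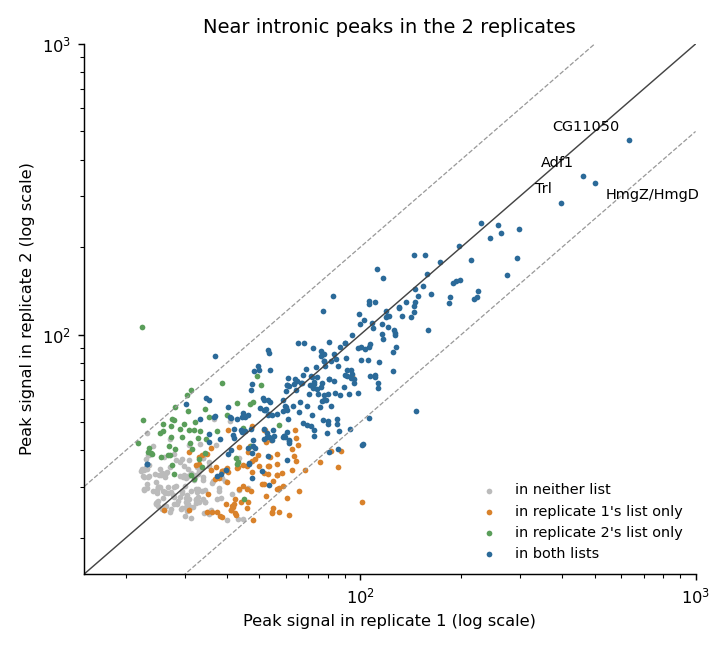
Peak signal of the 561 members with a value in both replicates, replicate 1 on the horizontal and replicate 2 on the vertical log axis, coloured by presence in each replicate's own thresholded list. The solid line marks equal signal and the dashed lines a factor of 2, which 535 members stay within. The 4 highest members are named and lie below the line of equal signal.

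Recurrence rose with height, which is given as a description of the lists only. Heights and thresholded lists came from the same libraries, and a threshold can by itself leave out low peaks. The values therefore cannot show a link between height and recurrence apart from how the lists were made. The 256 members in both lists had a median series-wide signal of 142.3, the 99 in replicate 1's list alone 79.9, the 61 in replicate 2's list alone 74.8, and the 156 in neither 57.8. Ranked by height into 4 groups of 143, the highest group had 142 members in both lists, the next 94, the next 17 and the lowest 3. Promoter peaks recurred in both lists more often, 657 of 1152 (57.0%; odds ratio of members to promoter peaks 0.61, adjusted p = 1.09e-05 by Fisher's exact test, two-sided), and so did the 208 near intronic peaks on X, of which 120 did (57.7%; odds ratio 0.59, adjusted p = 0.00469). Among the 50% of peaks with the highest signal neither difference passed the exact test. There 84.9% of 271 members recurred, against 90.7% of 654 promoter peaks (odds ratio 0.58, adjusted p = 0.0600 by the exact test) and 88.6% of 114 peaks on X (odds ratio 0.72, adjusted p = 0.562). Far intronic peaks recurred in 138 of 312 cases (44.2%; Fisher's exact test, adjusted p = 0.888).

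Summits were densest close to starts. The introns that the rule admits cover 17.9 Mb outside X, and the members came to 31.9 per Mb. Far introns held 312 summits in 25005631 bp, a density 2.56 times lower (exact binomial test, two-sided, adjusted p = 9.45e-42). From 500 to 1000 bp there were 173 members, or 54.0 per Mb (95% exact Poisson interval 46.3 to 62.7), and from 1000 to 2000 bp there were 176, or 34.4 per Mb (29.5 to 39.9). From 2000 to 3000 bp the density was 21.5 per Mb (17.2 to 26.6), and it was 24.1 and 24.7 per Mb in the next 2 steps, with intervals that overlap. Beyond 5000 bp it was 19.1 per Mb up to 10000 bp, 13.9 up to 20000 bp and 5.36 farther out. The intervals cover counting error only. Eligible sequence was taken over whole arms, with no limit to parts where reads can be placed, and the effect on these densities was not tested.

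The limits of the rule cut through a continuous range of distances. Just outside 500 bp lay members by bark and Eip63F-1, both at 502 bp, with signals of 93.8 and 113.3, and just inside, not members, lay peaks by aru at 488 bp (231.7) and Pcyt1 at 491 bp (55.1). At 5000 bp the last members lay by cno at 4966 bp (88.3) and CG46339 at 4977 bp (59.3), and the next peaks, not members, by natalisin at 5005 bp (112.6) and tara at 5032 bp (140.9).

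First introns held most members. An intron that is the first of some transcript enclosed 442 of 572 summits (77.3%, 95% Wilson interval 73.7 to 80.5%), while such introns make up 58.5% of the eligible sequence. The density was 42.1 per Mb there and 17.5 per Mb in other introns, a ratio of 2.41 (exact binomial test, two-sided, adjusted p = 9.32e-21 over 2 comparisons). The ratio was above 1 at every distance, 2.83 from 500 to 1000 bp, 2.88 to 2000 bp, 2.11 to 3000 bp, 1.70 to 4000 bp and 1.41 to 5000 bp. The shortest annotated intron around each summit had a median length of 6870 bp, and the middle 50% ran from 3069 to 13498 bp.

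**Figure D2:**
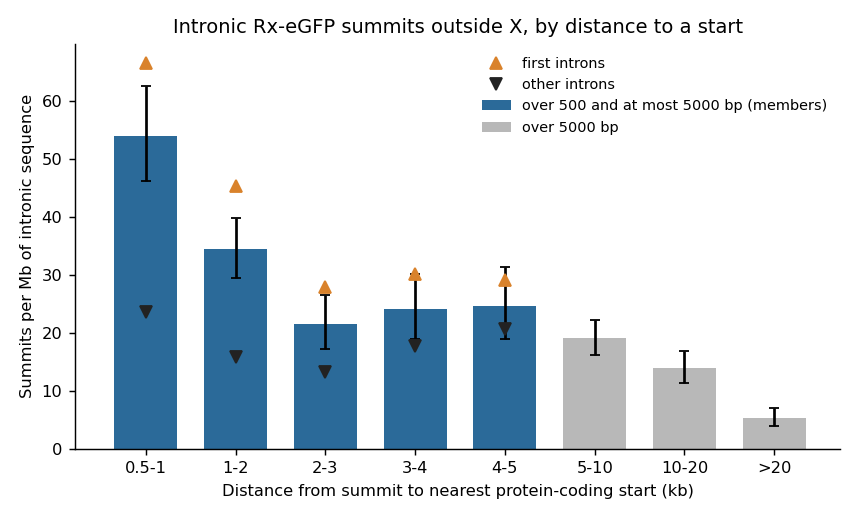
Intronic summits per Mb of intronic sequence outside X, by distance to the nearest protein-coding start; bars give the density with 95% exact Poisson intervals, blue for the members and grey beyond 5000 bp. Triangles split the members' steps into first introns (pointing up) and other introns (pointing down), and at each of the 5 steps the first introns lie higher, with 66.6 against 23.6 per Mb in the nearest.

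For 495 members (86.5%) the nearest start belonged to a gene that encloses the summit, and for 77 to another gene. Downstream of the nearest start lay 351 (61.4%), in 68.6% of the eligible sequence, and upstream lay 221, of which 162 were upstream of an internal start of a gene that encloses them. Noncoding RNA starts were within 500 bp of 21 members (3.67%) and of 6 far intronic peaks (1.92%), a difference that was not tested. The nearest start itself had a promoter peak for 83 members (14.5%) and for 30 far intronic peaks (9.62%). The odds ratio of 1.60 did not pass the test (Fisher's exact test, two-sided, adjusted p = 0.108), but with members taken only up to 3000 bp it was 1.87 and passed (adjusted p = 0.0270). For scale, 1561 of 11749 protein-coding genes outside X (13.3%) had a promoter peak at some start.

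The large autosomal arms did not differ greatly in density. 3R held 176 members (35.4 per Mb), 2R 143 (33.8), 3L 139 (31.4) and 2L 114 (28.4). Chromosome 4 held 0 in 0.281 Mb, which allows up to 10.7 per Mb by the limit of 3 counts. On X the same positional rule gave 208 peaks, or 46.3 per Mb, against 31.9 outside it, a ratio of 0.69 (exact binomial test, two-sided, adjusted p = 8.99e-06). The labels do not record the embryos' sex.

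Member summits held ACAGTG more often than nearby sequence did. The word was in 144 of 572 member windows (25.2%), in 95 of 1096 windows centred 1000 bp to each side (8.67%), and in 22.03% of the windows of all 3250 peaks. The odds ratio against the flanking windows was 3.55 (Fisher's exact test, two-sided, adjusted p = 2.46e-17 over 37 motifs and 1.38e-15 over 2080 words of 6 letters). It lay between 2.45 and 4.18 in all 10 alternatives tried and passed the test in each. The word was one of 5, chosen with earlier results of these data known, so these values are no independent support for it. The other 4 were AGTGTA in 20.5% of member and 7.94% of flanking windows, ACACTG in 19.8% and 8.21%, ACTGTA in 18.4% and 7.12%, and GTGCAC in 11.2% and 4.20%. All words were searched on both strands, and occurrences of ACAGTG can share bases with those of ACACTG or of ACTGTA. At least 1 of the 5 was in 332 member windows (58.0%) and in 27.3% of flanking windows.

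The word had a preferred place and direction around the summit, a pattern noticed in these data and given without a test. Its middle lay 50 to 125 bp from the summit in 128 members (22.4%) and within 25 bp of it in 22 (3.85%). Per base and per 1000 windows this was 1.49 members at 50 to 125 bp, 0.77 at the centre and 0.39 from 250 to 500 bp. On the left of the summit, on the plus strand, 64 occurrences at 50 to 125 bp read ACAGTG and 13 read its complement CACTGT. On the right 15 read ACAGTG and 66 read CACTGT, so that most occurrences on either side point the 3′ end of ACAGTG towards the summit. Of the 8 stretches printed above, 6 have the summit on their 3′ side, from 37 bp away in Csk, which encodes a kinase that inhibits Src, to 95 bp in for, which encodes a cGMP-dependent protein kinase. The exceptions are CG31635 and CG17834, with the summit 26 and 37 bp to the 5′ side.

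Occurrences in other classes were uneven by side and strand too. Far intronic peaks had 30 ACAGTG and 9 CACTGT on the left at 50 to 125 bp, and 7 and 34 on the right. Promoter peaks had 74 and 29 on the left, and 34 and 82 on the right. Per base and per 1000 windows far intronic peaks had 1.39 peaks with the word at 50 to 125 bp and 0.32 at the centre, and promoter peaks 1.05 and 0.92. Neither place nor direction was tested between the classes.

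**Figure D3:**
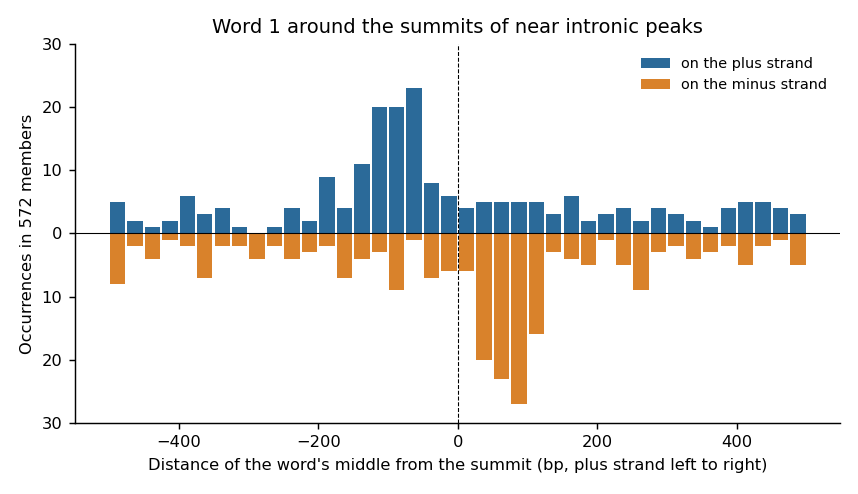
Occurrences of ACAGTG (word 1) in the 572 members by distance from the summit in steps of 25 bp, with those on the plus strand drawn upwards and those on the minus strand downwards. Plus-strand occurrences are most frequent to the left of the summit, 23 in the step from 50 to 75 bp, and minus-strand ones to the right, 27 in the step from 75 to 100 bp.

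Bases next to the word were also uneven. Over 163 occurrences in member windows, the second base before ACAGTG was G in 51.5% and the base directly before it C in 40.5%, against 30.5% and 34.7% over 95 occurrences in flanking windows. The longer word GCACAGTG, chosen after these values were seen, was in 36 member windows (6.29%), 16 flanking windows (1.46%), 7.69% of far intronic and 4.95% of promoter windows. The stretches from CG32264 and Csk hold ACAGTG a second time, starting 12 and 16 bases before the capitals.

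By height, ACAGTG was in 30.8% of the highest 143 members, 25.2% of the next group, 26.6% of the one after and 18.2% of the lowest 143. The odds ratio of the highest to the lowest group was 2.00 and did not pass the test once adjusted (Fisher's exact test, two-sided, p = 0.0190, adjusted p = 0.0570 over 3 comparisons). Of the 12 highest members only KCNQ and CG32264 held it, and of the 12 after them 6 did. By distance to a start the share was 22.5% from 500 to 1000 bp, 31.8% to 2000 bp, 23.8% to 3000 bp, 22.7% to 4000 bp and 18.8% to 5000 bp.

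The homeodomain core did not stand out. TAATTA was in 94 member windows (16.4%), in 14.7% of flanking windows and in 15.4% of all 3250 peak windows (odds ratio against flanks 1.14, Fisher's exact test, two-sided, adjusted p = 0.541). Its odds ratio was the lowest of the 36 words made of A and T alone, and with windows held to 35 to 45% GC it was 0.62 (adjusted p = 0.242, also by Fisher's exact test). The paired dimer with 3 bases between its arms was in 16 member windows (2.80%), 1.73% of flanking and 2.71% of all peak windows (adjusted p = 0.356), and that with 2 bases between in 13 (2.27%), 1.46% and 2.15% (Fisher's exact test, adjusted p = 0.409). The 16 members with the wider dimer had heights from 48.1 to 195.4, and 5 were in both replicates' lists. The highest lay in mam, which encodes the Notch coactivator Mastermind, with 100.5 in replicate 1 and 90.5 in replicate 2. Syn, which encodes the synaptic vesicle protein synapsin, had 69.5 and 56.8, and pum, the gene of the RNA-binding repressor Pumilio, had a dimer in 2 members.

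Of the 37 motifs, 8 were more frequent in member than in flanking windows (21.6% of those tested) and 0 were less frequent (0%), with 10 at an unadjusted p under 0.05 by Fisher's exact test. Beside the 5 chosen words these were TATAAA, the TATA box (35.8% against 22.1%), and the A and T control words AATATT (28.8% against 18.3%) and TTAATA (30.9% against 18.9%). Member windows were poorer in G and C, with a mean of 36.6% against 41.3% in the flanks. Flanking windows were placed by distance from the summit alone. Unlike member summits, they can lie in exons, outside genes or within 500 bp of a start. How far this adds to the differences from the flanks was not tested. Among the 2080 words, 163 were more frequent in members (7.84%) and 151 less frequent (7.26%). GTACAC (12.9% against 4.38%) was the highest in odds ratio after ACAGTG, and the lowest were TCCGGA (0.175% against 1.92%), CGCGCG (0.175% against 1.73%), CCGCGG (0.175% against 1.64%), CGGCCG (0.350% against 2.55%) and CCGGAG (0.874% against 4.65%). Words that overlap share bases, so these counts are not of independent words. With both groups held to 35 to 45% GC, which left 252 member and 466 flanking windows, only 13 words passed, all more frequent in members. By odds ratio AGGGTG came first (4.15; 9.13% against 2.36%), then GTGCAC (3.55; 13.1% against 4.08%) and ACAGTG (3.51; 27.8% against 9.87%). Of the 8 motifs, neither control word passed in those windows, while TATAAA (31.7% against 20.8%) and the 5 chosen words did. With the windows narrowed to 50 bp on each side, ACACTG did not pass, nor did GTGCAC or ACTGTA. The Hox and Extradenticle site TGATNNAT (10.1% against 5.97%) and the Forkhead site TGTTTAC (4.02% against 1.72%) passed there, though not in the wider windows.

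No motif or word passed the test between near and far introns. Against far intronic windows 0 of 37 motifs were higher (0%) and 0 lower (0%) by Fisher's exact test, with 1 at an unadjusted p under 0.05, and 0 of 2080 words were higher (0%) or lower (0%), with 120 at an unadjusted p under 0.05. ACAGTG was in 24.0% of far intronic windows (odds ratio 1.06; adjusted p = 0.861 by the exact test). That no word passed does not show that the classes are alike.

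Some motifs of promoter peaks were rarer in members or absent from them. The rule itself sets these classes apart by distance to a start, so the tests cannot separate a trait of the peaks from that distance. TATCGATA, the site of the replication-related element factor Dref, was in 0 of 572 member windows, which allows a share of up to 0.524%, and in 68 promoter windows (5.90%; Fisher's exact test, two-sided, adjusted p = 4.90e-11). GGTCACACT, the site of the core promoter factor M1BP, was in 0 members and 35 promoter windows (3.04%; Fisher's exact test, adjusted p = 1.51e-05). CGATA, a site of the insulator protein BEAF-32 that lies within the Dref site, was in 21.9% of members and 35.4% of promoter windows (adjusted p = 1.07e-07), and the E-box CAGCTG in 7.69% and 13.5% (Fisher's exact test, adjusted p = 0.00228). These were the 4 motifs lower in members (10.8% of 37), and 7 were higher (18.9%). ACAGTG was among the latter, in 25.2% against 18.9% (odds ratio 1.44; adjusted p = 0.0145 by the exact test), as were AGTGTA (20.5% against 12.2%), ACTGTA (18.4% against 12.7%), GTGCAC (11.2% against 7.20%), the E-box CATATG, the Sox site ACAATG and the Hox and Extradenticle site. Over 5 alternatives ACAGTG passed in 3, as did AGTGTA and also GTGCAC. The Hox and Extradenticle site passed in 2, as did ACTGTA, while CATATG passed in 1 and the Sox site in 0. Of the lower calls the Dref and BEAF-32 sites passed in 5, and M1BP and CAGCTG in 4. The Dref and M1BP sites were also rare in far intronic windows (0.321% and 0%) and in flanking windows (0.456% and 0.639%). Between members and flanks neither site passed Fisher's exact test (adjusted p = 0.373 and 0.292). Against promoter peaks 14 words of 6 letters were higher (0.673%) and 19 lower (0.913%). CGATAG was in 3.15% of members and 15.3% of promoter windows, and GGGGAA in 10.1% and 4.60%.

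**Figure D4:**
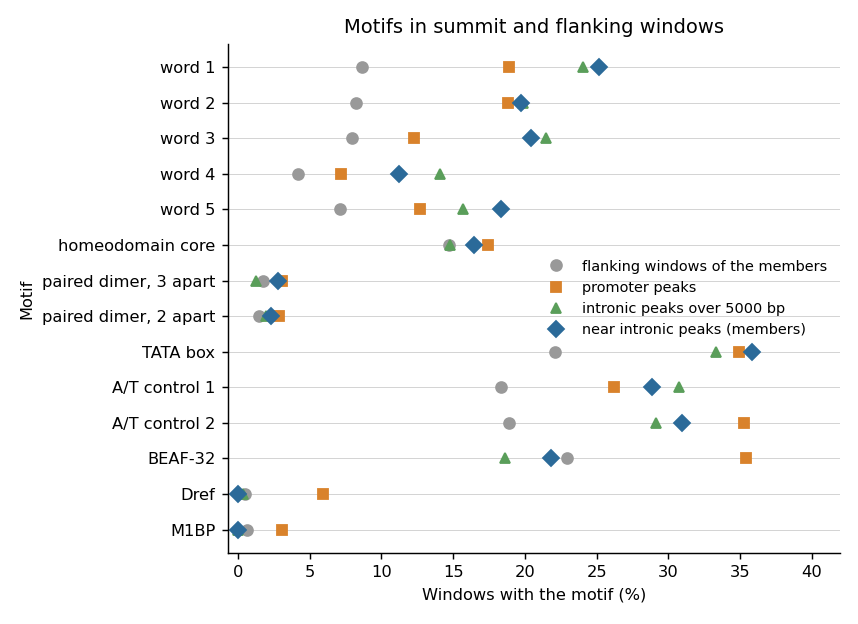
Share of 201-base windows that hold each of 14 motifs in members, in their flanking windows, in far intronic peaks and in promoter peaks, where word 1 is ACAGTG, word 2 is ACACTG, word 3 is AGTGTA, word 4 is GTGCAC and word 5 is ACTGTA. The 5 words, chosen with earlier results of these data known, are higher in all 3 peak classes than in the flanks. The Dref and M1BP sites are at 0 in members and at 5.90% and 3.04% in promoter peaks. In far intronic peaks they are at 0.321% and 0%, and in the flanks at 0.456% and 0.639%.

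The members lay in 440 genes, which is 5.70% of the 7714 genes outside X with eligible intronic sequence. Of these, 333 genes held 1 member, 66 held 2 and 41 held 3 or more. Members close together are not independent, since 82 had another within 1000 bp and 17 overlapped another.

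The genes with most members were apt and shn, with 7 each. In apt, which encodes the transcription factor Apontic, the member signals ran from 57.5 to 186.9 within 20.1 kb of eligible sequence, and 2 of the 7 were in both replicates' lists. The highest, on 2R:23570134-23570417, had 98.4 in replicate 1 and 89.9 in replicate 2. In shn, whose zinc finger product Schnurri acts in Decapentaplegic signalling, they ran from 73.6 to 204.1 within 34.5 kb, and 4 of 7 were in both lists. The highest of these, on 2R:11184435-11184718, had 124.8 and 75.2. CG32264 and Svil, which encodes the actin-binding protein supervillin, held 5 each. In CG32264 a single peak of 399.7 stood above 4 from 67.0 to 106.0, and in Svil a peak of 133.5 stood above 4 from 49.3 to 68.2.

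Kank, bol, drongo and tou held 4 each. The highest in Kank had 121.8 in replicate 1 and 115.9 in replicate 2. In drongo, which encodes a protein with an Arf GTPase-activating domain, the highest had 100.1 and 108.6, and in tou, which encodes a chromatin remodelling protein, 85.6 and 78.2. The 4 members in bol, the gene of the germline RNA-binding protein Boule, were low, with series-wide signals from 16.5 to 59.9. A pair of them overlap, and 3 have no overlapping peak in replicate 1.

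Gene lists were compared by members per Mb of eligible sequence, beside 32.1 per Mb over all genes outside X, with no test. Their genes were chosen with earlier results of these data known, so densities and shares are no independent support for any list. The share of genes that enclose a member is set beside 5.70% over all genes, whose median eligible sequence was 0.438 kb, while the medians of the lists ran from 0.276 to 8.09 kb. Where a gene encloses several members, the values given are those of its highest. Genes of Wnt, Hedgehog, BMP and JAK-STAT signalling had the highest density, 93.2 per Mb, and 9 of 30 with eligible sequence enclosed a member. Of the 19 members in that list 7 lie in shn. Mad, the transcription factor that carries the BMP signal to the nucleus, had a peak with 145.7 in replicate 1 and 129.7 in replicate 2. The higher of 2 peaks in wit, the gene of a type II BMP receptor, had 103.5 and 89.5, and its nearest start was that of CG32259. The genes of small GTPases and the cytoskeleton came next, with 70.9 per Mb and 10 of 37 genes (27.0%). Among them Dhc64C, the dynein heavy chain gene, had 188.6 and 150.9, tsr, which encodes cofilin, 94.3 and 73.2, and RhoGEF64C 84.4 and 82.5.

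Chromatin regulators came to 51.1 per Mb, with 4 of 41 genes (9.76%). Beside Trl they include kis, which encodes the chromatin remodeller Kismet, with 144.5 in replicate 1 and 120.0 in replicate 2, and psq, a BTB-domain gene, with 30.2 and 57.8. The Notch pathway came to 48.6 per Mb, with 4 of 16 genes, among them mam with 109.2 and 105.6, the ubiquitin ligase gene neur with 108.3 and 109.7, and the kinase gene Nak with 85.6 and 35.2. RNA-binding and splicing regulators came to 48.3 per Mb, with 9 of 32 genes (28.1%). Beside mub these include brat, which encodes a translational repressor, with 157.7 and 162.0, and mbl, which encodes the splicing factor Muscleblind, with 92.7 and 62.7.

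Receptor tyrosine kinase and Ras signalling came to 42.5 per Mb, with 7 of 30 genes (23.3%). Its highest member, in aos, the gene of a secreted inhibitor of the EGF receptor, had 218.4 in replicate 1 and 132.9 in replicate 2. The higher of 2 members in aop, the gene of the ETS repressor Yan, had 130.6 and 124.1, and that in the insulin receptor gene InR had 82.8 and 135.9. Muscle genes came to 41.3 per Mb, with 7 of 37 genes (18.9%). Their highest were in mbc, which acts in myoblast fusion, with 77.8 and 81.3, in the transcription factor gene Mef2, with 64.0 and 70.6, and in Msp300, the gene of a nuclear anchoring protein, with 71.4 and 48.3.

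Transcription factor lists lay near 32.1 per Mb in density and above 5.70% in their share of genes. Patterning factors came to 35.9 per Mb, with 4 of 29 genes (13.8%), and neural factors to 31.2 per Mb, with 5 of 19 (26.3%). The highest of 3 members in ush, which encodes a cofactor of GATA factors, had 128.2 in replicate 1 and 90.5 in replicate 2, and that in grh, which encodes the epidermal factor Grainyhead and stands in both lists, 117.0 and 97.0. The Hox gene Abd-B had 52.4 and 55.3, zfh1, the gene of a zinc finger homeodomain repressor, 102.6 and 112.7, and chinmo, a BTB zinc finger gene, 43.6 and 29.6. Ecdysone and nuclear receptor genes came to 24.9 per Mb, with 5 of 23 genes (21.7%), among them sima, the hypoxia-inducible factor gene, with 106.5 and 130.3, the nuclear receptor gene Hr3 with 86.9 and 62.1, and the coactivator gene tai with 50.9 and 30.7.

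Paired-class, eye and head, axon guidance and synapse gene lists had densities from 4.67 to 11.4 per Mb, below the 32.1 over all genes, while their share of genes that enclose a member, from 2.78% to 6.82%, lay on either side of 5.70%. The paired-class, eye and head, and synapse lists held 1 member each, so their densities are uncertain, and no difference from all genes was tested. Of 18 paired-class and retinal homeobox genes only hbn, a paired-class gene of the embryonic brain, enclosed a member (5.56%; 11.4 per Mb), with 26.2 in replicate 1 and 28.9 in replicate 2, in neither replicate's list. Of 15 eye and head patterning regulators only bowl, a zinc finger gene of the odd-skipped family, did (6.67%; 9.37 per Mb), with 47.9 and 23.1. Axon guidance and neural adhesion genes came to 10.7 per Mb, with 3 of 44 (6.82%). In that list fra, the gene of a Netrin receptor, had 80.7 and 94.3, sli, which encodes the midline repellent Slit, 42.8 and 51.3, and Fas3, an adhesion gene, 23.5 and 40.7. Of 36 synapse and ion channel genes only ChAT, the gene of choline acetyltransferase, enclosed a member (2.78%; 4.67 per Mb), with 85.0 and 51.3. Of 39 cytosolic ribosomal protein genes none did, but their eligible sequence was only 0.0143 Mb in all.

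**Figure D5:**
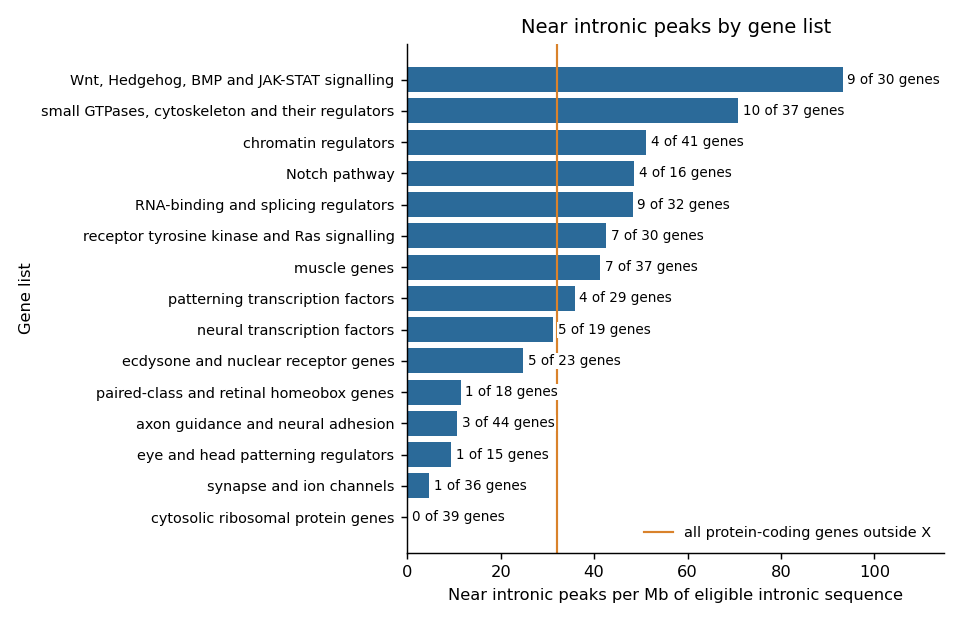
Members per Mb of eligible intronic sequence in 15 gene lists, with the number of genes that enclose a member beside each bar; the line marks all protein-coding genes outside X at 32.1 per Mb. The list of Wnt, Hedgehog, BMP and JAK-STAT signalling is highest at 93.2, and the lists of synapse, eye and head, axon guidance and paired-class genes lie between 4.67 and 11.4. The synapse, eye and head, and paired-class lists rest on 1 member each. The genes of the lists were chosen with earlier results of these data known.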

How the data were processed

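Chromatin immunoprecipitation with sequencing was done in 2 biological replicates of 1 group. The authors deposited 8 peak lists, on dm6 per the labels, thresholded on or ranked by the irreproducible discovery rate. Each peak carries a signal and a score deposited by the authors, in units that are not stated. No label or file used here names the aligner or the peak caller, and depth is unknown. Genes came from Ensembl release 115. Shares were compared with Fisher's exact test and densities with the exact binomial test, both two-sided, with Benjamini-Hochberg adjustment within a family and a threshold of 0.05 (Python 3.11.15, SciPy 1.17.1). Replicate values are the highest overlapping peak of that replicate's ranked list. Flanking windows that overlapped a peak were left out, and the rest were not held to the positional rule of the members. The word test was tested on simulated windows drawn at the same GC share in both groups. Members and flanks differ in GC, so that simulation does not cover their comparison. The 5 words and the genes of the 15 gene lists (573 of 596 symbols matched) were chosen with earlier results of these data known. Genes named are those of the 12 highest members, the 5 genes with most members and ties, up to 3 in each list, those at the distance limits, and those with printed sequences. Comparisons of first introns, of X, of height groups, of motifs against promoters and of recurrence against promoters and X were added after the data were seen, with their alternatives. Alternatives were other lists, limits, windows and flanks.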

Additional observations from a re-analysis of the deposited data

Results flagged for a closer look

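The ranked list behind the main list holds 85 peaks on the arms whose score is 830 or more, the lowest score in the main list, but which the main list leaves out. Of these, 19 meet the same positional rule as the members, and the comparisons above do not use them. Their signals run from 54.8 to 1447.9, with a median of 153.5, and 0 of the 19 overlap a peak of either replicate's own thresholded list or of the other series-wide list. They lie on 3R (14) and 2L (5).

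The highest lies on 2L:480957-481231 in an intron of ush, 1411 bp from a start of cbt, with a signal of 1447.9, above every member, and with 820.5 in replicate 1 and 659.4 in replicate 2. The next lies in Lk6, a kinase gene, with 949.4, and with 472.5 in replicate 1 and 482.2 in replicate 2. No label or file used here states why the thresholded lists leave them out, which was not tested.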

How the results depend on the processing

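Across 98 recomputed values, 75 counted as unchanged. For odds ratios and density ratios this meant the same direction and the same side of the threshold. For counts it meant a value within a set factor of the main one. All alternatives were unchanged for heights against promoter peaks, the density against far introns, first introns and X, and ACAGTG against flanking windows. Leaving out a replicate means using the other's own list. Ranges over those settings were 359 to 402 for the number of members (572 in the main list), 98 to 295 for the words of 6 letters (314), 7 to 7 for the motifs against promoters (11), 0.85 to 0.996 for ACAGTG against far introns (1.06), 0.91 to 0.98 for TAATTA against flanks (1.14) and 1.12 to 1.53 for the height against far introns (1.18). None of the odds ratios that turned direction passed the test in either form.

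With the 50% of peaks with the highest signal, the odds ratios became 0.70 for recurrence against far introns, 0.82 for a promoter peak at the nearest start, 0.91 for ACAGTG against far introns, 0.58 for recurrence against promoters and 0.72 against X, the last pair no longer past the threshold. Windows of 35 to 45% GC gave 0.62 for TAATTA, 7 motifs against promoters and 13 words, and windows free of soft-masked sequence gave 0.63 for TAATTA and 2 motifs against flanks (8), with 80 members left. Windows of 50 bp either side gave 4 motifs against promoters, and flanks 2000 bp away gave 473 words. Without the 5 chosen words 3 motifs passed against flanks. Members up to 3000 bp gave 1.87 for the promoter peak at the nearest start. The cause of these moves was not tested, also where a setting left fewer windows or peaks. No paired analysis was possible because there is a single group.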
